A study of Saccharomyces cerevisiae with 22 samples.

Results

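The mitochondrial ribosomal protein genes of Saccharomyces cerevisiae that lie outside most chromosome segments gained or lost in the evolved lines were followed across all 8 groups of the study. They were chosen by name, as genes called MRPL, MRPS or RSM, or MRP followed by a digit, and genes on chromosomes IX and XII, on the right ends of chromosomes IV and V and in a stretch of chromosome VII were left out. These left-out regions are called the segments below. The study also lists a gain of chromosome III and a loss of part of chromosome XVI, each in a single line. The rule did not leave these out, so that MRPL32 on chromosome III stayed in. The labels do not tie the lineages to the study's line numbers. The rule found 56 genes among 6225 on the array, and 10 more genes with such names lay inside the segments. The rule used names and positions and no expression value, but it was set with earlier results of these data known.

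RNA of exponentially growing cultures was hybridised to 22 single-colour Agilent arrays. All strains were self-diploids of the BY4742 background (mating type alpha, his3, leu2, lys2 and ura3 deleted), grown without leucine, and all carried a single-copy LEU2 plasmid. This was either the empty vector pRS315 or pUKC715, which encodes a serine tRNA that reads the leucine codon CUG and so causes mistranslation. The ancestor was compared with the evolved lineages B3, D11 and H9, which the labels place after 20 weeks of serial transfer (the study's methods give a shorter time), and each evolved lineage is a single colony and so 1 clone of its population. There were 2 arrays of the ancestor and 2 of B3 with pRS315, and each of the other 6 groups had 3. The labels do not say whether replicates were separate cultures, so the p-values measure the spread between these arrays, which may be technical.

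Mitochondrial ribosomes are built in the mitochondrial matrix from ribosomal RNAs of the mitochondrial genome and proteins that, except for Var1, are encoded in the nucleus, made in the cytosol and imported. They translate a handful of inner membrane proteins, nearly all of them core subunits of the respiratory chain and of the ATP synthase. In yeast the mRNAs of many of these proteins are bound by Puf3, which promotes their decay on glucose, while the Hap complex, through its subunit Hap4, activates respiratory chain genes. Proteins of this ribosome either have a counterpart in bacteria or are found only in mitochondria, and the family names in the annotation (u or b against m) record which.

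All 56 genes were well above background on all 22 arrays. Mean log2 signals ran from 8.45 for MRPL24 to 12.35 for MRPS12, which are the brightnesses of different probes and do not rank the genes. The median signal of an array lay between 356 and 2278 intensity units. HIS3, LYS2 and URA3 were well above background on 5, 0 and 4 arrays and LEU2 on 22. The 4 markers of mating type alpha were well above background on 22 arrays. Of the 4 markers of mating type a, MFA1, STE2 and BAR1 were well above background on 22 arrays and MFA2 on 12. Their log2 signals on single arrays lay between 3.21 and 7.78, below those of the alpha markers, which lay between 10.38 and 16. Most pairs of replicates correlated across genes at 0.990 or more, but replicate 3 of D11 with the empty vector correlated with the others at 0.924 and 0.926, replicate 3 of H9 with the empty vector at 0.974 and 0.965, and replicate 2 of D11 with the tRNA at 0.967 and 0.965. Several results that rest on these 3 arrays are given with and without them, while counts and medians of further lists of genes are given only with them. In the text below, a level is the log2 signal of a gene minus the median of its array, a difference is the difference of 2 group means of such levels, and a gene passed the test where its Benjamini-Hochberg adjusted p in limma, over all 5912 genes tested, was under 0.05.

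In the ancestor, the mitochondrial ribosomal protein genes were lower with the mistranslating tRNA than with the empty vector. The difference was below 0 for 55 of the 56 genes. It passed the test for 28 of them, where 12.5% of all genes tested passed in that direction, and RSM22 alone passed in the other direction, where 9.08% of all genes did. The median difference of the 56 genes was -0.42, or 0.749-fold, against -0.06 for all genes tested. The middle 50% of the genes lay between -0.53 and -0.33, and no gene reached a 2-fold difference, while 3.99% of all genes passed with at least that size. For 51 of the 56 genes every tRNA array lay below both empty vector arrays, which held for 36.7% of all genes.

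**Figure D1:**
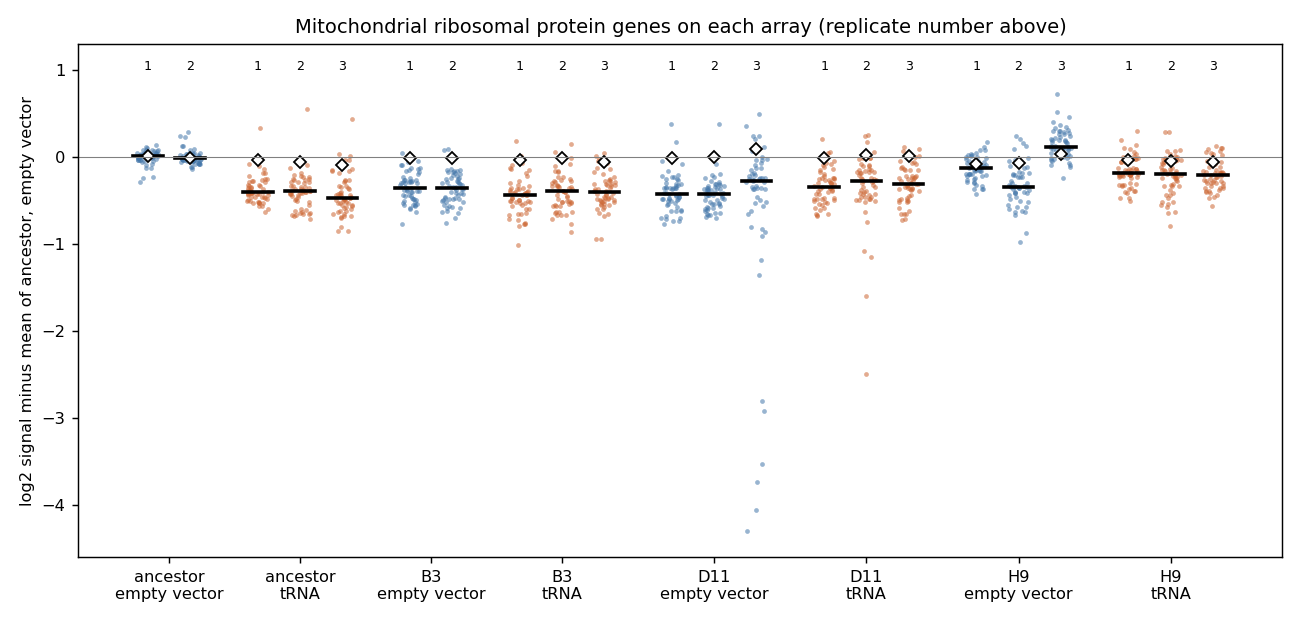
Each point is 1 of the 56 genes on 1 array, as the log2 signal minus the gene's mean in the ancestor with the empty vector (y axis), for the 22 arrays (x axis, blue for the empty vector and orange for the tRNA). Black bars are medians of the 56 genes and open diamonds medians of all genes tested. The medians of the ancestor with the tRNA lie between -0.47 and -0.39, those of H9 with the empty vector between -0.34 and 0.12, and the 6 lowest points belong to replicate 3 of D11 with the empty vector.

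RSM10 (YDR041W), the small subunit protein uS10m, had levels of 0.50 and 0.41 in the ancestor with the empty vector and of -0.18, -0.19 and -0.39 with the tRNA. Its level fell by 0.71 (SE 0.14, adjusted p = 0.00281), the largest fall of the list in this comparison. MRPS9 (YBR146W), the small subunit protein uS9m, whose bacterial counterpart reaches towards the tRNA in the P site, had levels of -0.10 and -0.23 with the empty vector and of -0.76, -0.83 and -0.78 with the tRNA. It fell by 0.63 (SE 0.11, adjusted p = 9.61e-04). The groups did not overlap for either gene.

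MRPS35 (YGR165W), a small subunit protein found only in mitochondria (mS45), had levels of 0.91 and 0.88 with the empty vector and of 0.37, 0.19 and 0.21 with the tRNA. It fell by 0.64 (SE 0.21, adjusted p = 0.0386). In the large subunit, MRPL3 (YMR024W, mL44), which has a fold related to ribonuclease III, had levels of 2.00 and 1.92 against 1.50, 1.34 and 1.31. It fell by 0.58 (SE 0.10, adjusted p = 0.0012). The tRNA arrays were thus below both empty vector arrays in these genes of both subunits.

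With the empty vector on both sides, the lineage B3 was lower than the ancestor in 54 of the 56 genes, and 13 of them passed the test (7.31% of all genes passed in that direction), with none passing in the other (6.77% of all genes). The median difference was -0.34, or 0.788-fold, against -0.01 for all genes. With only B3 and the ancestor in the fit 42 genes passed, beside 54.8% of all genes, and centred on genes outside the segments 6 did, beside 14.0%. MRPS35 showed the largest fall, from levels of 0.91 and 0.88 in the ancestor to 0.13 and 0.14 in B3, a difference of -0.76 (SE 0.23, adjusted p = 0.0365). MRPL10 (YNL284C, uL15m) had levels of 0.45 and 0.61 against -0.10 and -0.17 and fell by 0.66 (SE 0.20, adjusted p = 0.0387). MRPL6 (YHR147C, uL6m), a large subunit protein whose bacterial counterpart lies near the factor binding site, had levels of -0.53 and -0.59 against -1.16 and -1.19 and fell by 0.61 (SE 0.15, adjusted p = 0.0115). The groups did not overlap in these 3 genes. In 51 of the 56 genes both B3 arrays lay below both ancestor arrays, which with 2 arrays a side held for 41.1% of all genes.

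The lineage D11 with the empty vector was likewise lower than the ancestor in 54 genes, and 30 passed the test (14.0% of all genes passed in that direction), while RSM22 passed in the other (16.1% of all genes). The median difference was -0.39, or 0.762-fold, against -0.01 for all genes. With only D11 and the ancestor in the fit 4 genes passed (14.5% of all genes), and the methods' t-test gave 7 at the threshold of the study and 3 after Benjamini-Hochberg (13.1% and 7.29% of all genes). MRPL13 (YKR006C), a large subunit protein found only in mitochondria (mL50), had levels of 0.83 and 0.56 in the ancestor and of 0.16, -0.00 and -0.21 in D11. It fell by 0.71 (SE 0.12, adjusted p = 5.79e-04), and by 0.61 (SE 0.12, adjusted p = 0.00219) without the third D11 array. MRPL31 (YKL138C, mL60), likewise of the large subunit, had levels of 1.05 and 0.89 against 0.46, 0.31 and 0.16 and fell by 0.66 (SE 0.13, adjusted p = 0.00139). Without the third D11 array it fell by 0.58 (SE 0.13, adjusted p = 0.00548). MRPS17 (YMR188C, uS17m), whose bacterial counterpart is among the first proteins to bind the small subunit rRNA, had levels of 0.48 and 0.57 against 0.05, -0.09 and -0.82. It fell by 0.82 (SE 0.22, adjusted p = 0.0126), and by 0.55 (SE 0.19, adjusted p = 0.0401) without the third D11 array.

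For 46 of the 56 genes every D11 array lay below both ancestor arrays, which held for 27.8% of all genes.

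On the third D11 array, which also had the lowest median signal of the 22 arrays and the lowest share of spots well above background (85.8%), 6 of the 56 genes lay more than 1 log2 unit below the mean of the other D11 empty vector arrays, or 10.7% of the list against 10.1% of all genes. These were RSM7 (uS7m), MRPS12 (uS12m, at the decoding centre), MRP8, MRPL16 (uL16m), MRP17 (bS6m) and RSM27 (mS33). MRPS12, for example, had levels of 2.41, 2.39 and -1.29 on the 3 D11 arrays and of 2.54 and 2.99 in the ancestor. MRPL16 had levels of 0.52, 0.44 and -2.56 against 0.95 and 0.97. Their differences from the ancestor lay between -1.70 for MRP8 and -1.15 for MRP17, and none of the 6 passed the test (adjusted p between 0.0645 for MRP8 and 0.19 for RSM7). Without the array they lay between -0.69 for MRP8 and -0.19 for RSM7, the median of the 56 genes was -0.42, and 30 genes fell, with RSM22 again the only one to rise. Of the 31 genes that passed with all arrays, 27 were among those that passed without it. The share of all genes in the fit without it is not given. RSM7, MRP8 and MRPL16 also lay more than 1 log2 unit low on replicate 2 of D11 with the tRNA, where RSM7 had a level of -0.09 beside 2.37 and 2.19. The part of RNA quality or labelling in these values was not tested.

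**Figure D2:**
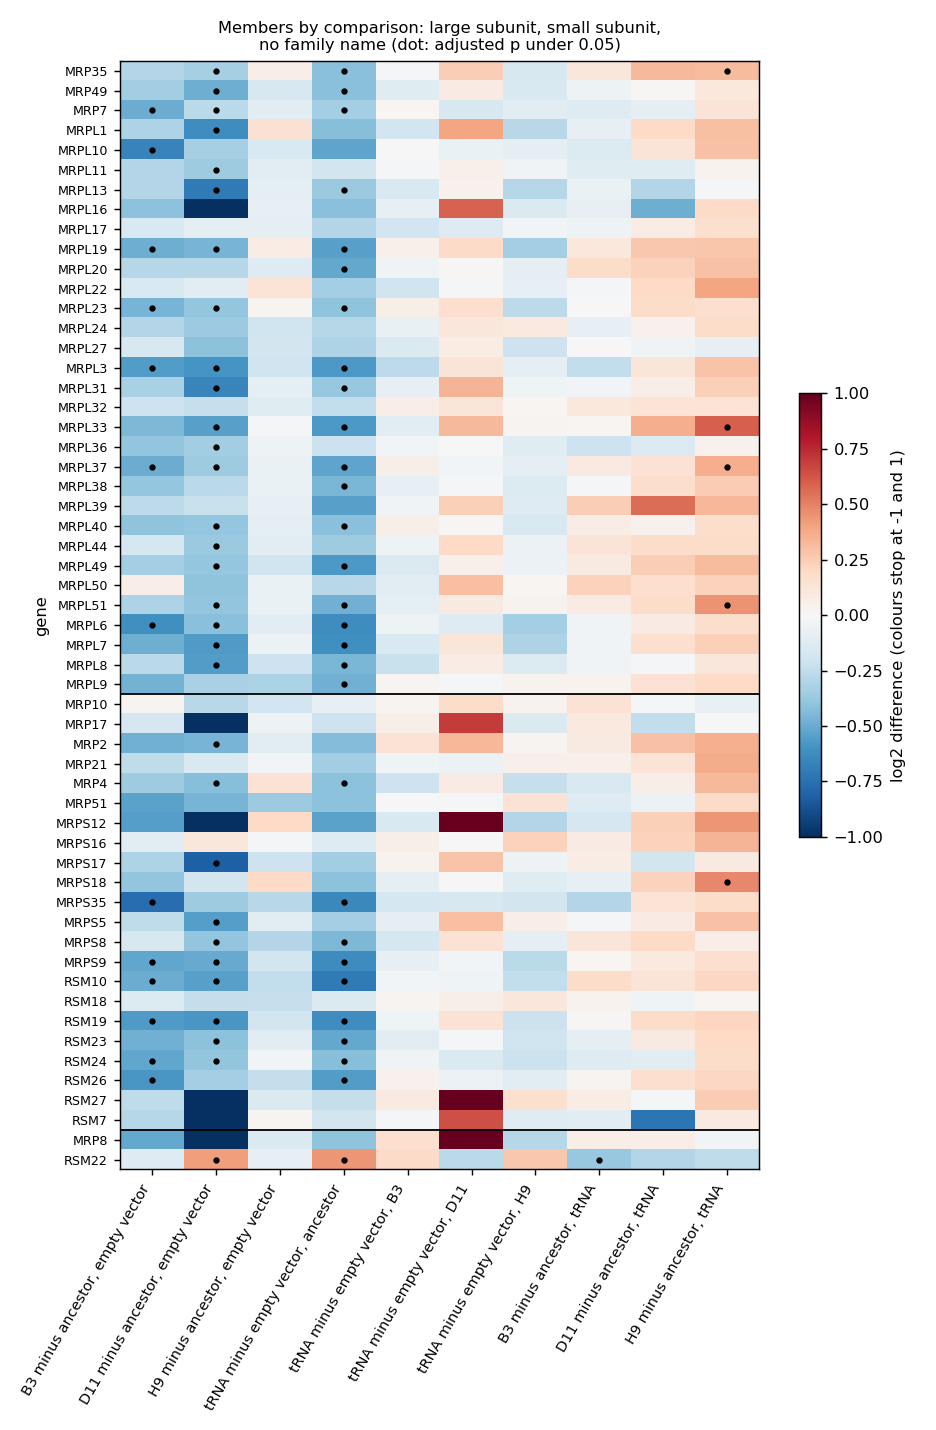
Rows are the 56 genes in order of large subunit, small subunit and no family name, columns are 10 comparisons, and colour is the log2 difference, cut at -1 and 1. A dot marks an adjusted p under 0.05. Blue fills the columns of B3 and D11 against the ancestor and of the tRNA in the ancestor, with 13, 31 and 29 dots, and RSM22 is red where most other genes are blue.

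In H9 with the empty vector no gene passed the test against the ancestor. The difference was below 0 for 47 genes with a median of -0.10, against -0.05 for all genes, and 0 passed in limma, where 3.82% of all genes did. None had an unadjusted p under 0.05 and none passed the methods' t-test. The largest differences were -0.36 for MRP51 (SE 0.20, adjusted p = 0.503) and 0.20 for MRPS12 (SE 0.70, adjusted p = 0.981). The 3 H9 arrays had medians of -0.12, -0.34 and 0.12 relative to the ancestor. Without replicate 3 the median was -0.22 and 4 genes passed, all lower (11.1% of all genes passed in either direction), and without replicate 2 the median was 0.01.

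The comparisons of B3, D11 and H9 with the ancestor and the tRNA comparison in the ancestor share the 2 empty vector arrays of the ancestor, so that an error in those arrays would enter all of them. Without replicate 1 of the ancestor with the empty vector, 1 gene passed in B3, 5 in D11 and 7 in the ancestor with the tRNA, where 4.16%, 13.6% and 7.78% of all genes passed. Without replicate 2 the numbers were 4, 6 and 6, where 4.62%, 13.9% and 7.31% of all genes passed. The share of the 56 genes was thus below that of all genes for D11 in both fits and for B3 in the first. The medians lay between -0.43 and -0.36 in these fits. Within slide 1 they were -0.37 in B3, -0.42 in D11 and -0.41 for the tRNA in the ancestor, and within slide 2 they were -0.37, -0.43 and -0.38, while slide 3 held no empty vector array of the ancestor. For the ancestor with the tRNA, 12 genes passed without replicate 3 of the tRNA arrays. For B3, 3 and 1 passed without replicate 1 and replicate 2 of B3, 8 without replicate 1 of H9 with the tRNA and 25 without replicate 3 of H9 with the empty vector, the last through the shared estimate of the spread. The shares of all genes are not given for these last fits, nor for the fits between lineages without single arrays below. Their counts cannot be set against all genes. In comparisons between the lineages, added after the first results were seen, the ancestor arrays enter only through the shared estimate of the spread. B3 was lower than H9 in 51 of the 56 genes and 14 passed (13.2% of all genes in that direction), with a median of -0.27. D11 was lower than H9 in 53 genes and 21 passed (13.6% of all genes), with a median of -0.31, and RSM22 passed in the other direction (20.4% of all genes). With only the compared groups in the fit, so that no ancestor array enters, 0 genes passed in either comparison (8.37% and 0.0338% of all genes) and the medians were the same. The methods' t-test gave 4 and 4 genes at the threshold of the study and 0 after Benjamini-Hochberg, for which no share of all genes is given. Both comparisons rest in part on replicate 3 of H9: without it the medians were -0.12 and -0.16, with 9 and 10 genes lower among those that passed. For B3 against H9, 4 and 2 genes passed without replicate 1 and replicate 2 of B3, and 22 without replicate 2 of H9, where the median was -0.36.

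Between B3 and H9, MRPS18 (YNL306W, uS11m) had levels of -0.38 and -0.41 in B3 and of 0.04, 0.21 and 0.34 in H9, a difference of -0.59 (SE 0.16, adjusted p = 0.0142). MRPL19 (YNL185C, uL11m), whose bacterial counterpart belongs to the centre that activates translation factors, had levels of -0.10 and -0.36 against 0.11, 0.25 and 0.63, a difference of -0.56 (SE 0.14, adjusted p = 0.00626). MRPL10 differed by -0.52 (SE 0.18, adjusted p = 0.0476). Between D11 and H9, MRPL1 (YDR116C, uL1m), the protein of the mobile stalk at the exit site, had levels of 0.71, 0.77 and -0.11 against 1.25, 1.24 and 1.21, a difference of -0.78 (SE 0.17, adjusted p = 0.00293) and of -0.49 (SE 0.11, adjusted p = 0.00385) without the third D11 array. MRPL13 differed by -0.62 (SE 0.11, adjusted p = 7.66e-04), and by -0.52 (SE 0.11, adjusted p = 0.00391) without the third D11 array. MRPS12 was the only gene of the 56 to pass with a difference of at least 2-fold here, at -1.79 (SE 0.62, adjusted p = 0.0358), and this was -0.56 (SE 0.14, adjusted p = 0.00958) without the third D11 array and -1.64 (SE 0.72, adjusted p = 0.0951) without the third H9 array. Passing with at least 2-fold was seen in 6.50% of all genes there. B3 and D11 differed in 2 genes that passed, RSM22 and MRPL13 (11.4% of all genes), with a median of 0.04. MRPL13 was higher in B3 than in D11 by 0.42 (SE 0.12, adjusted p = 0.0366). The number was 1 without replicate 1 of B3, replicate 2 or 3 of D11 with the empty vector or replicate 1 of H9 with the tRNA, and 0 without replicate 2 of B3. It was 1 with the replicate number as a block and 0 with only the 2 groups in the fit, again without shares of all genes.

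Within the lineages, no gene passed the test between the tRNA plasmid and the empty vector. The median difference of the tRNA from the empty vector was -0.04 for B3, 0.08 for D11 and -0.11 for H9, and it was above 0 for 17, 37 and 15 genes. The share of all genes that passed in limma was 1.05%, 3.37% and 10.7%. At an unadjusted p under 0.05 there were 1, 9 and 8 genes, beside 6.68%, 18.9% and 27.5% of all genes. As shares of the list, these counts lay below the shares of all genes in each lineage. The methods' t-test, at the threshold of the study, gave 2, 2 and 1, for which no share of all genes is given. In B3 the values ran from -0.26 for MRPL3 (SE 0.10, adjusted p = 0.489) to 0.19 for RSM22 (SE 0.11, adjusted p = 0.993). In D11 they ran from -0.27 for RSM22 (SE 0.10, adjusted p = 0.165) to 1.36 for MRP8 (SE 0.60, adjusted p = 0.238), the latter with replicate 3 of the empty vector far below the others. Without that array the value of MRP8 was 0.34 (SE 0.37, adjusted p = 0.66). In H9 the values ran from -0.34 for MRPL19 (SE 0.12, adjusted p = 0.0815) to 0.27 for RSM22 (SE 0.10, adjusted p = 0.0905). Without replicate 3 of H9 with the empty vector the H9 median was 0.02 and 1 gene passed in H9 and 2 in D11. In H9, 1 gene passed without replicate 1 of H9 or of D11 with the empty vector and 2 without replicate 3 of that D11 group. Shares of all genes are not given for these fits without single arrays.

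**Figure D3:**
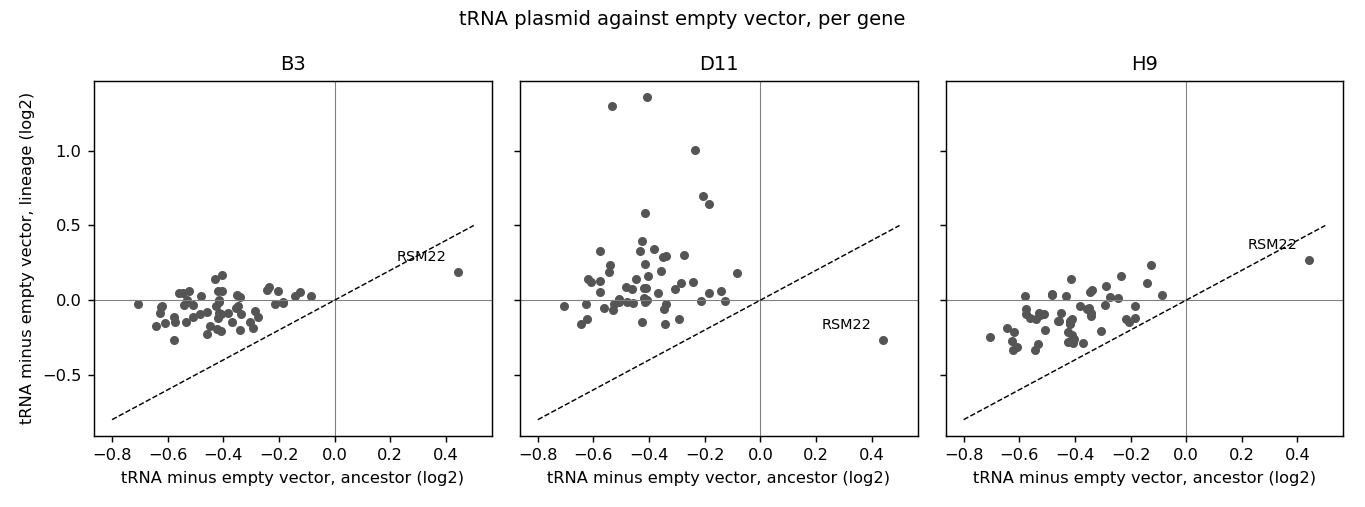
Each point is 1 of the 56 genes, with the log2 difference of the tRNA plasmid from the empty vector in the ancestor (x axis) and in B3, D11 or H9 (y axis). The dashed line marks equal differences, and the x values are the same in each panel. Medians are -0.42 in the ancestor and -0.04, 0.08 and -0.11 in the lineages, and 55 of the 56 points lie above the line in each panel, with RSM22 below it.

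The difference between the response of D11 and that of the ancestor was tested directly. It was above 0 for 55 genes, with a median of 0.51 against 0.08 for all genes. It passed for 20 genes in that direction (9.17% of all genes) and for RSM22 in the other (7.19% of all genes). MRPL33 (YMR286W, uL30m) had levels of -0.55 and -0.63 in the ancestor with the empty vector and of -1.05, -1.19 and -1.26 with the tRNA, and of -0.94, -1.01 and -1.45 in D11 with the empty vector and of -0.94, -0.84 and -0.65 with the tRNA. The difference of the responses was 0.90 (SE 0.20, adjusted p = 0.00979), and 0.74 (SE 0.18, adjusted p = 0.012) without the third D11 array. MRPL1 differed by 0.82 (SE 0.25, adjusted p = 0.0384) and, without that array, by 0.54 (SE 0.15, adjusted p = 0.0233).

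RSM19 (YNR037C, uS19m), whose bacterial counterpart sits in the head of the small subunit, had levels of 0.58 and 0.64 in the ancestor with the empty vector and of 0.10, 0.06 and -0.19 with the tRNA. In D11 its levels were -0.12, -0.04 and 0.23 with the empty vector and 0.13, 0.11 and 0.26 with the tRNA. Its responses differed by 0.76 (SE 0.20, adjusted p = 0.0205) and, without the third D11 array, by 0.87 (SE 0.20, adjusted p = 0.0103). The counts of genes that follow stand here without the shares of all genes in the same fits. The number of 21 genes was 3 and 6 without replicate 1 and replicate 2 of the ancestor with the empty vector, and 12 and 7 without replicate 1 and replicate 3 of the ancestor with the tRNA. It was 11 without replicate 2 of D11 with the empty vector, 10 and 8 without replicate 1 and replicate 3 of D11 with the tRNA, and 12 without either B3 array with the empty vector.

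For B3 and H9 the same differences were also above 0 for 55 genes each, with medians of 0.35 and 0.30, and the medians of all genes are not given here. The differences of B3, D11 and H9 all subtract the same ancestor response, in which 55 genes were below 0. Their counts are thus not independent and largely repeat that 1 result. None passed in limma, where 0.913% and 0.846% of all genes did. At an unadjusted p under 0.05 there were 19 and 10 genes, beside 16.3% and 11.2% of all genes. The largest were 0.68 for RSM10 in B3 (SE 0.20, adjusted p = 0.116) and 0.61 for MRPL33 in H9 (SE 0.20, adjusted p = 0.212), and the lowest in both was RSM22, at -0.25 (SE 0.16, adjusted p = 0.445) and -0.17 (SE 0.15, adjusted p = 0.752). With only the 4 groups in the fit, 18 genes passed in B3, and without replicate 3 of H9 with the empty vector 6 passed in B3 and 10 in H9, where the median was 0.45. Without replicate 2 of that group the H9 median was 0.20, and without replicate 3 of D11 with the empty vector 3 passed in B3. The share of all genes beside the 18 stands in the section on processing. For the fits without single arrays no share is given, so their counts cannot be set against all genes.

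With the tRNA on both sides, the median difference of B3 from the ancestor was 0.00, and 28 genes were higher and 28 lower. Only RSM22 passed, lower in B3 (1.61% of all genes in that direction), and it passed neither with the replicate number as a block nor in 12 of the 22 fits that left out 1 array, which included each fit without an array of B3. D11 was higher in 40 genes with a median of 0.12, and 0 passed in limma, where 8.59% of all genes did. At an unadjusted p under 0.05 there were 7, a share below the 21.9% of all genes, and the methods' t-test gave 3. The values of D11 ran from -0.73 for RSM7 (SE 0.79, adjusted p = 0.633) to 0.56 for MRPL39 (bL33m, SE 0.17, adjusted p = 0.0566). The value of RSM7 was 0.06 without replicate 2 of D11 with the tRNA, and 3 genes passed without replicate 3 of D11 or replicate 2 or 3 of H9 with the empty vector, and 1 with the replicate number as a block. No shares of all genes are given for these counts or for that of the t-test. H9 was higher than the ancestor in 51 genes with a median of 0.20, or 1.15-fold, against 0.04 for all genes, and 5 passed, all higher (5.40% of all genes in that direction). The 3 comparisons share the ancestor arrays with the tRNA.

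The 5 genes that rose in H9 with the tRNA were MRPL33, MRPS18, MRPL51 (YPR100W, mL43), MRPL37 (mL54) and MRP35 (bL35m). MRPL33 had levels of -1.05, -1.19 and -1.26 in the ancestor and of -0.61, -0.64 and -0.46 in H9, a rise of 0.60 (SE 0.14, adjusted p = 0.00644). MRPS18 had levels of -0.27, -0.44 and -0.52 against 0.14, -0.02 and 0.11 and rose by 0.48 (SE 0.15, adjusted p = 0.0394). MRPL51 had levels of 0.83, 0.71 and 0.70 against 1.22, 1.09 and 1.27 and rose by 0.45 (SE 0.12, adjusted p = 0.0167). The groups did not overlap in these 3 genes. Non-overlap with H9 higher was found in 32 of the 56 genes and in 20.5% of all genes. The counts without single arrays that follow are given without the shares of all genes in those fits. Leaving out single arrays changed the number that passed to between 1 and 11, with 1 left without replicate 1 or replicate 3 of H9 with the tRNA or without replicate 3 of the ancestor with the tRNA, 2 without replicate 2 of either group, 3 without either B3 array with the empty vector or replicate 2 of B3 with the tRNA, 8 without replicate 2 of H9 with the empty vector, and 11 without replicate 3 of D11 or of H9 with the empty vector.

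RSM22 (YKL155C) passed with a sign opposite to the other passing genes in 5 comparisons. It encodes a protein of the mitochondrial small subunit that resembles methyltransferases and carries no ribosomal family name in the annotation. Its levels were 0.48 and 0.53 in the ancestor with the empty vector and 0.84, 1.06 and 0.94 with the tRNA, and it rose by 0.44 (SE 0.11, adjusted p = 0.0115). In D11 with the empty vector its levels were 0.88, 0.89 and 1.00, a rise of 0.42 over the ancestor (SE 0.11, adjusted p = 0.0113). In B3 they were 0.41 and 0.34, which gave a difference from the ancestor of -0.13 (SE 0.12, adjusted p = 0.542), and D11 was higher than B3 by 0.55 (SE 0.11, adjusted p = 0.00371) and than H9 by 0.50 (SE 0.10, adjusted p = 0.00182).

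With the tRNA RSM22 had levels of 0.52, 0.66 and 0.52 in B3, 0.71, 0.68 and 0.57 in D11 and 0.70, 0.79 and 0.59 in H9, all below the lowest ancestor array with the tRNA. Against the ancestor, B3 had a difference of -0.38 (SE 0.10, adjusted p = 0.0384), while the differences of -0.29 in D11 (adjusted p = 0.0882) and -0.25 in H9 (adjusted p = 0.124) did not pass. The response of D11 minus that of the ancestor was -0.71 (SE 0.15, adjusted p = 0.0066), and -0.67 (SE 0.16, adjusted p = 0.0109) without the third D11 array. MRP8, the other gene of the list without a family name, is no longer counted as a mitochondrial ribosomal protein. Its levels were 1.61 and 1.60 in the ancestor with the empty vector and 1.18, 1.24 and 1.19 with the tRNA, a difference of -0.41 that did not pass.

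**Figure D4:**
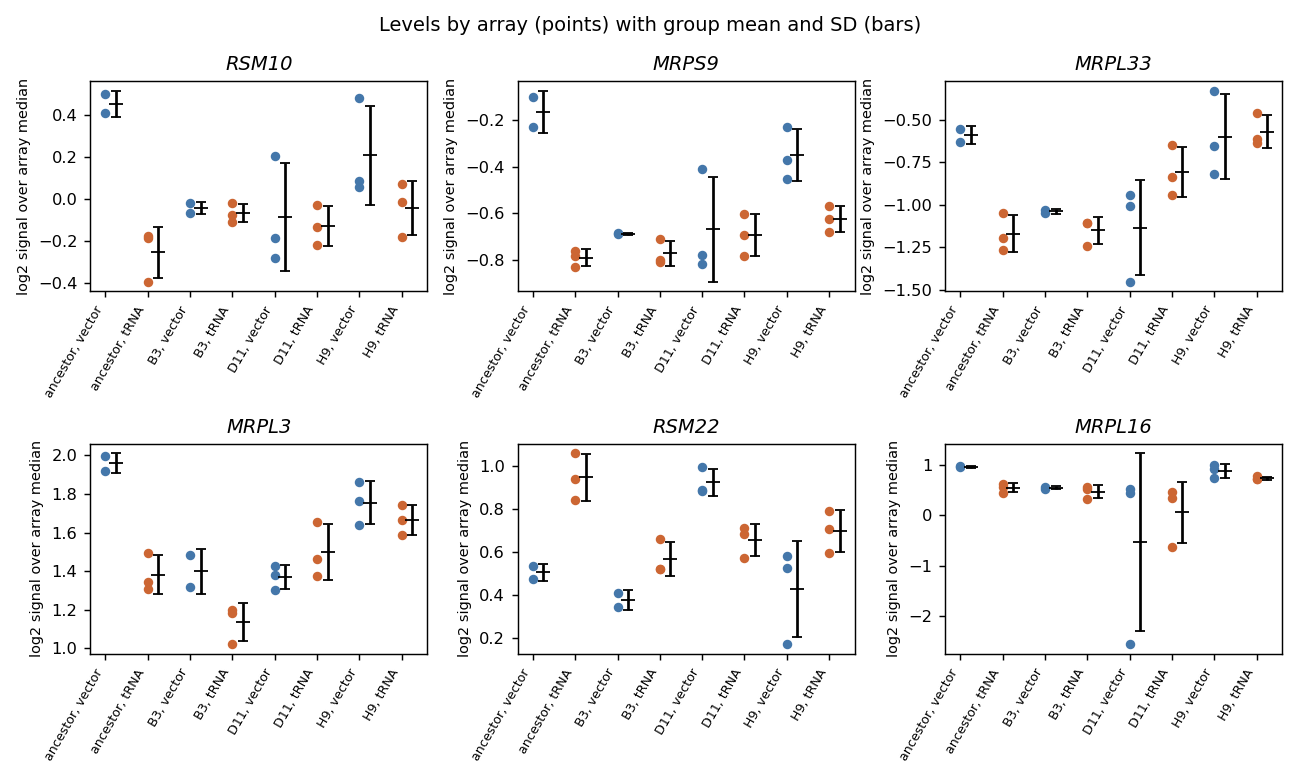
Levels of 6 genes (y axis, log2 signal minus the array median) in the 8 groups (x axis), with 1 point per array and bars for the group mean and SD. RSM10, MRPS9, MRPL33 and MRPL3 are lower in the ancestor with the tRNA than with the empty vector, RSM22 is higher, and MRPL16 has 1 D11 array at -2.56 and 1 at -0.64.

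The 32 large subunit and 22 small subunit genes with a family name had close medians. They were -0.42 and -0.41 for the tRNA in the ancestor (19 and 9 genes fell), -0.33 and -0.38 in B3 (7 and 6) and -0.38 and -0.44 in D11 (20 and 10), the latter pair with the empty vector on both sides. The 38 genes with a bacterial counterpart and the 16 found only in mitochondria had medians of -0.42 and -0.42 for the tRNA in the ancestor, -0.37 and -0.32 in B3 and -0.40 and -0.39 in D11. Across the 3 comparisons 52 of the 56 genes had differences below 0 in each. Those that fell in each were MRP7 (bL27m), MRPL3, MRPL6, MRPL19, MRPL23 (uL13m), MRPL37, MRPS9, RSM10, RSM19 and RSM24 (mS35), 10 in all, and 36 fell in at least 1. The comparisons share the ancestor arrays, so these counts are not independent of each other. Shares of all genes by the same joint rules are not given. The joint counts here, and the 19 genes below, thus cannot be set against all genes. MRP10 (mS37), MRPL17 (mL46), MRPS16 (bS16m) and RSM18 (bS18m) were among the 19 genes that passed in none of the 3.

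The other components of mitochondrial translation were followed from lists, whose counts stand beside 12.5%, 7.31% and 14.0% of all genes lower for the tRNA in the ancestor, in B3 and in D11. Of 13 further mitochondrial ribosome genes, 8 fell and none rose in the ancestor with the tRNA (median -0.46), 6 fell in B3 (-0.32) and 8 fell in D11 (-0.48), beside medians of -0.42, -0.34 and -0.39 for the 56 genes. MNP1, the stalk protein of the large subunit, fell by 0.81 (adjusted p = 3.85e-04) for the tRNA in the ancestor and by 0.61 (adjusted p = 0.00863) and 0.82 (adjusted p = 2.26e-04) in B3 and D11. TUF1, the mitochondrial elongation factor Tu, fell by 1.16 (SE 0.12, adjusted p = 1.41e-05) for the tRNA in the ancestor, by 1.00 in B3 (SE 0.13, adjusted p = 2.95e-04) and by 1.10 in D11 (SE 0.12, adjusted p = 1.42e-05). Among the 6 translation factors 2, 3 and 3 fell, with medians of -0.64, -0.46 and -0.80, and MEF2, a ribosome recycling factor, was with TUF1 among them each time. These medians include FMT1, by far the dimmest of the 6. It had levels of -5.14 and -5.23 in the ancestor with the empty vector and of -5.36, -6.36 and -6.47 with the tRNA. Medians without FMT1 are not given, so those of this list cannot be ranked against the 56 genes. Of the 10 mitochondrial aminoacyl-tRNA synthetases 7, 7 and 6 fell, with medians of -0.55, -0.59 and -0.48.

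Of 8 assembly factors only MBA1, which tethers the ribosome to the inner membrane, fell, in each of the 3 comparisons, by 0.74, 0.71 and 0.78. A single gene of 8 is too close to the share of all genes for anything to be read from the list. In the 10 translational activators of single mitochondrial mRNAs, 5, 2 and 1 fell, and 1 rose for the tRNA in the ancestor, the single gene in D11 being below the share of all genes. Of 4 genes of mitochondrial DNA maintenance and transcription 2, 1 and 2 fell, among them the RNA polymerase gene RPO41 for the tRNA in the ancestor (-0.38) and in D11 (-0.34). In these 3 comparisons the 18 genes of the respiratory chain had lower medians than the 56 genes, of -0.78, -1.13 and -0.76, and 13, 17 and 14 of them fell. The 6 ATP synthase genes had medians of -0.60, -0.80 and -0.68, and 5 fell each time. ATP2, a catalytic subunit, fell by 1.23 in B3 and NDI1, the internal NADH dehydrogenase, by 1.58. In the comparison of the responses of D11 and the ancestor, 14 of the 18 respiratory chain genes and 5 of the 6 ATP synthase genes passed. All were higher in D11, as were 9.17% of all genes. Both counts were taken with all arrays, including replicate 3 of D11 with the empty vector.

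**Figure D5:**
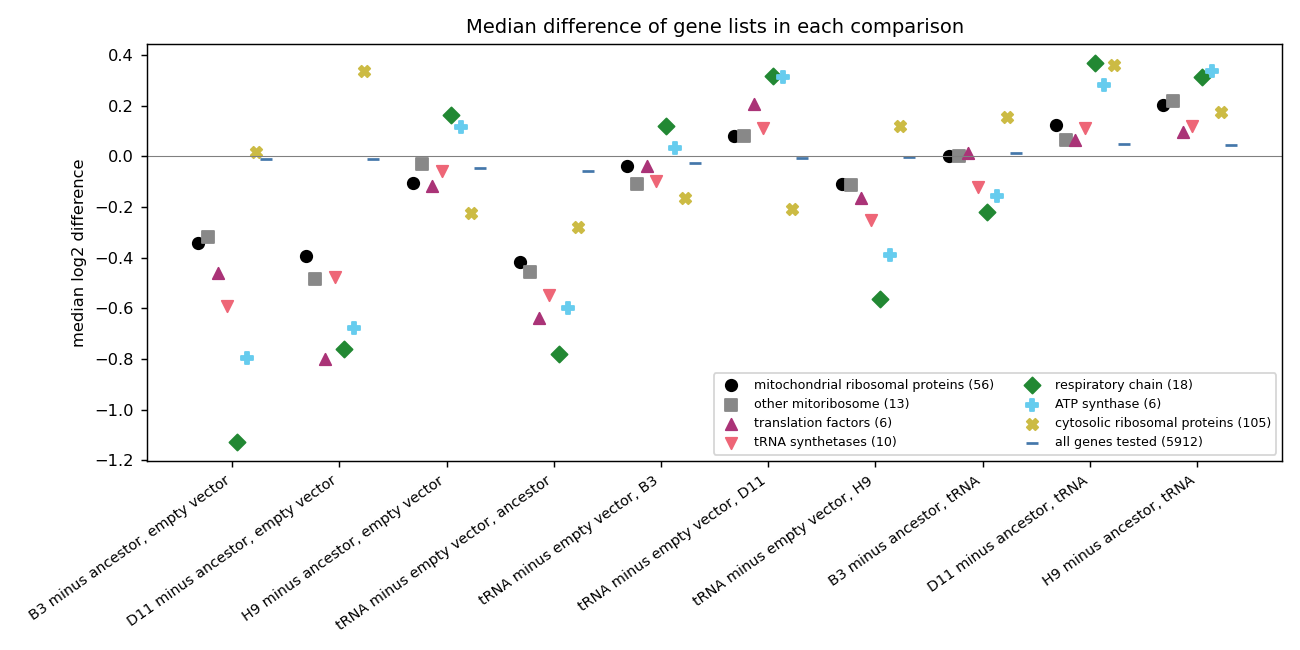
Median log2 difference (y axis) of 8 lists of genes, with the number of genes in brackets, in 10 comparisons (x axis); no error is drawn. The 56 genes and the 13 further mitochondrial ribosome genes lie close together throughout, the respiratory chain lies lowest for B3 at -1.13, and cytosolic ribosomal proteins lie at 0.34 for D11 against the ancestor, where the 56 genes lie at -0.39.

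The cytosolic ribosomal protein genes, 105 outside the segments, had a median of -0.28 for the tRNA in the ancestor, where 12 fell and none rose, or 11.4% of the list against 12.5% of all genes lower. In B3 their median was 0.02, with 1 higher and 3 lower among those that passed. In D11 it was 0.34, with 19 higher and 2 lower, or 18.1% higher against 16.1% of all genes. The counts lower for the tRNA and higher in D11 were thus near the shares of all genes in those directions. In D11 the medians of the cytosolic and the mitochondrial list lay on opposite sides of 0. The arrays of the ancestor with the tRNA were not alike in the cytosolic list, with medians of -0.05, -0.49 and -0.29, while the 56 mitochondrial genes had -0.41, -0.39 and -0.47 on the same arrays.

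VAR1, the ribosomal protein encoded in mitochondrial DNA, had levels of -2.22 and -2.56 in the ancestor with the empty vector and of -2.50, -2.50 and -2.34 with the tRNA. The difference was -0.05 (SE 0.46, adjusted p = 0.951). VAR1 passed only between D11 and H9 with the empty vector, at 1.20 (SE 0.41, adjusted p = 0.0331). There the D11 arrays had levels of -2.13, -2.10 and -1.42 and the H9 arrays of -2.78, -4.46 and -2.01. No fit of VAR1 without single arrays is given. HAP4 had levels of 1.26 and 1.23 in the ancestor with the empty vector, 0.48, 0.29 and 0.63 with the tRNA and 0.77 and 0.84 in B3 with the empty vector. Its difference for the tRNA in the ancestor was -0.78 (SE 1.03, adjusted p = 0.65). Replicate 3 of D11 with the empty vector lay at -1.81 and replicate 2 of D11 with the tRNA at -2.79, where the other D11 arrays lay between 1.32 and 1.96. Both arrays enter the spread shared by all groups, from which this SE was taken. HAP4 passed in no comparison with these arrays included. No fit of HAP4 without them is given, so this does not show that its level was unchanged. HAP2, another subunit of the complex, fell for the tRNA in the ancestor by 0.44 and in B3 by 0.61. PUF3, which lies on chromosome XII, passed in no comparison, and its levels were -1.99 and -2.02 in the ancestor with the empty vector and -2.11, -1.76 and -2.01 with the tRNA.

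The 10 genes with mitochondrial ribosomal protein names inside the segments gave other medians. With the empty vector on both sides their medians were 0.04 in B3, 0.22 in D11 and 0.39 in H9, beside -0.34, -0.39 and -0.10 for the 56 genes outside. These medians pool several segments, and the labels do not say which lineage carries which segment. In B3 the genes on the right end of chromosome IV lay between -0.45 (MRPS28) and -0.10 (MRPL28). Those of the other segments lay between 0.18 (RSM25) and 0.71 (MRPL25), and none of these B3 differences passed. On the right end of chromosome IV, MRP20 (uL23m) was higher than in the ancestor by 0.59 in D11 (adjusted p = 0.0465) and by 0.89 in H9 (adjusted p = 0.0259), and MRPL35 by 0.59 in H9 (adjusted p = 0.0148). MRP13, in the stretch of chromosome VII, had a difference of -0.45 in D11 (adjusted p = 0.00811). For the tRNA in the ancestor, where both sides have the same genome, their median was -0.27, and MRPL35, MRP13 and RSM25 fell by 0.42, 0.35 and 0.38.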

How the data were processed

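The authors scanned each array and extracted spot intensity with Agilent Feature Extraction 10.7.3.1, per the file headers, and deposited 13048 spots per array. A further deposited table holds log2 values. On every array these equalled the log2 of Agilent's background-subtracted signal after a shift by a single constant, with spots without a positive signal listed at 0. The medians of its columns lay between 9.70 and 10.11. It was used only as an alternative. The study's methods state median centring and Student's test.

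From the 12512 spots that are not controls, outlier-marked spots were left out, processed signals were put on the log2 scale and centred on each array's median, and means were taken over the spots of each probe, then over the probes of each gene. Probes needed 1 or more spots well above background on all arrays of some group, leaving 5940 of 6256 probes and 5912 of 6225 genes. No spot was saturated. The files hold no gene name column, so names were taken from the RefSeq R64 annotation through systematic names (5720 genes matched). The array design (sacCer2, per the file headers) and that annotation differ in build, so no positions are given, and no sequences were at hand to print. One linear model with 8 groups was fitted with limma 3.58.1 in R 4.3.3 (14 residual and 2.23 prior degrees of freedom) and p-values were adjusted by Benjamini-Hochberg over all 5912 genes. On simulated data of this design the script was tested before use. Summaries were made in Python.

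Genes named are, for each comparison, up to 3 largest rises and falls among those that passed, or 1 of each as values where none passed, with MRP8, VAR1, PUF3, HAP4, the genes with the highest and lowest mean signal and up to 2 passing genes of each further list. MRPL16, MRPS12, RSM7, RSM27 and MRP17 on 1 array, the further values of MRPL3 and RSM19, and the genes inside the segments were picked after their values were seen. The 3 comparisons between lineages were added after the data were seen. The members and lists were chosen with earlier results of these data known. Alternatives were other scalings, normexp with quantile normalization (on the median spot signal, since no mean signal column was used here), no filter, array weights, within-slide values, only the groups compared, the replicate number as a block, single arrays left out, and the methods' t-test. Array and slide share their numbers: slide 1 to 3 held replicates 1 to 3, and slide 3, scanned on another day, held no empty vector array of the ancestor or B3. The number of arrays limits the precision.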

Additional observations from a re-analysis of the deposited data

Results flagged for a closer look

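The response to the tRNA plasmid differed between D11 and the ancestor by a test of the difference itself in 21 of the 56 genes, beside 16.4% of all genes. The number was 3, beside 4.47% of all genes, without replicate 1 of the ancestor with the empty vector. Among the genes named for this comparison, the difference of the responses was 0.90 for MRPL33, 0.82 for MRPL1, 0.76 for RSM19 and -0.71 for RSM22. Groups of 2 or 3 arrays have no Dixon test. Array weights estimated over all genes were lowest for replicate 3 of D11 with the empty vector (0.0587), replicate 3 of H9 with the empty vector (0.107) and replicate 2 of D11 with the tRNA (0.177), and the highest was 4.43.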

How the results depend on the processing

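The medians of B3 and D11 against the ancestor with the empty vector and of the tRNA in the ancestor were below 0 under each alternative run, while the number of genes that passed moved widely, as did the share of all genes, given in brackets for the main comparisons. With array weights 44 genes passed in B3 (58.3%), 48 in D11 (53.0%), 14 in H9 (30.7%) and 44 for the tRNA in the ancestor (52.2%). The tRNA within B3, D11 and H9 then gave 3, 7 and 8, the lineages against the ancestor with the tRNA 2, 9 and 29, the differences of responses 31, 40 and 31 (35.5%, 44.9% and 26.1%), B3 against H9 30 (53.3%) and B3 against D11 11 (33.2%). With only the groups compared, 42 passed in B3 (54.8%), 4 in D11 (14.5%), 18 for the response of B3 (14.0%), 0 for B3 and 10 for H9 against the ancestor with the tRNA, and 0 in each comparison between lineages. Scaled to the 75th percentile the numbers were 20 in B3 (15.7%), 1 and 2 for the tRNA in D11 and H9, 1 for D11 with the tRNA and 34 for D11 against H9 (35.5%). Centred on genes outside the segments they were 6 in B3 (14.0%), 17 in D11 (31.2%), 0, 2 and 2 for B3, D11 and H9 with the tRNA and 9 for B3 against H9 (28.2%). The deposited series values gave 20 in B3 (14.0%), a median of -0.50 in D11, 3 for the tRNA in H9, 2 for D11 with the tRNA (median 0.026), 2 for the response of B3, 34 for D11 against H9 (34.8%) and 1 for B3 against D11. Normexp with quantile normalization gave 1 for the tRNA in H9, 0, 2 and 2 for B3, D11 and H9 with the tRNA and 1 for B3 against D11. The methods' t-test at its own threshold gave 22 in B3 (22.8%), 7 in D11 (13.1%), 2, 2 and 1 for the tRNA in B3, D11 and H9, 3 and 11 for D11 and H9 with the tRNA, and 4, 4 and 1 for B3 against H9, D11 against H9 and B3 against D11. After Benjamini-Hochberg it gave 24 in B3 (27.7%), 3 in D11 (7.29%), 10 for the tRNA in the ancestor (5.68%), 0 for B3 and 9 for H9 with the tRNA, and 0 in each comparison between lineages. Leaving out replicate 3 of every group gave 26 in B3 (30.0%), 5 in H9 (16.2%, median -0.22), a median of 0.029 for the tRNA in H9, 0 and 1 for B3 and D11 with the tRNA, 2 and 2 for the responses of B3 and H9 (median 0.42 in H9), a median of -0.12 for B3 against H9, 14 for D11 against H9 (26.2%, median -0.20) and 1 for B3 against D11. Within slide 2 the medians were -0.33 in H9, 0.16 for the tRNA in H9, 0.46 for the response of H9, -0.013 for B3 against H9 and -0.10 for D11 against H9. Within slide 3 the median was -0.31 for the tRNA in H9, and within slide 1 it was 0.00527 for D11 with the tRNA. No count or median moved without the filter. The cause of these changes was not tested.

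Leaving out single arrays, between 1 and 25 genes passed in B3, 5 and 37 in D11, 0 and 4 in H9 and 6 and 34 for the tRNA in the ancestor. The ranges were 0 to 2 for the tRNA in D11 and in H9, 0 to 1, 0 to 3 and 1 to 11 for B3, D11 and H9 with the tRNA, and 0 to 6, 3 to 28 and 0 to 10 for the responses. They were 2 to 22 for B3 against H9, 11 to 29 for D11 against H9 and 0 to 3 for B3 against D11. These ranges of counts stand without the shares of all genes in the same fits. Medians ranged from -0.22 to 0.0145 in H9, -0.20 to 0.019 for the tRNA in H9, 0.20 to 0.45 for the response of H9, -0.36 to -0.12 for B3 against H9 and -0.38 to -0.16 for D11 against H9. Single genes changed sign in 2 cases, RSM7 in D11 with the tRNA (0.058 without replicate 2, with a range from -1.17 over single arrays left out) and MRPS12 in H9 with the empty vector (-0.025 without replicate 1 and 0.43 without replicate 2 of the ancestor).

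The replicate number of an array is also its slide, and slide 3 was scanned on another day, while no label gives the number a meaning of its own. Deviations from group means correlated with a median of 0.0238 over 71 pairs of arrays with the same number and of -0.00534 over 140 other pairs. With the replicate number as a block 0 and 1 genes passed for B3 and D11 with the tRNA and 1 for B3 against D11, and no other count moved by over 1.5 times. All 56 genes were well above background on 22 arrays. Their lowest log2 signals on single arrays were 5.90 for RSM27 and 5.91 for MRPL16. The part of low signal in such values was not tested.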
